A study of Mus musculus with 14 samples.

Results

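A set of 10 genes that mark the primitive streak and the caudal end of the early embryo was followed across wild-type and Trincr1-/- mouse embryonic stem cells (ESCs) in 2 media. The set was taken by name and holds the caudal homeobox genes Cdx1, Cdx2 and Cdx4, the T-box genes T and Eomes, the homeobox genes Mixl1 and Evx1, and the ligand genes Wnt3, Wnt8a and Fgf8, 10 of the 41204 genes in the RNA-seq table. Wild-type ESCs came from a C57BL/6 x 129/sv cross, and the knockout was made in ESCs with a pair of guides that flank exons 2 to 4 of Trincr1, a long noncoding RNA listed in the table as Gm2694. The labels do not say which knockout clone was sequenced, so the genotype is known from what may be a single clone. In 2i + LIF the cells had 1 µM PD0325901, an inhibitor of MEK, 3 µM CHIR99021, an inhibitor of GSK3, and 1000 units per ml of LIF, a cytokine that sustains self-renewal. In PD + LIF they had the same PD0325901 and LIF without CHIR99021, for 4 days after 24 h in 2i + LIF. Each of the 4 groups had 2 samples, and nothing in the labels says that they came from separate cultures, so each p-value measures the spread between samples that may be technical replicates. The medium comparison sets CHIR99021 and the days of culture together, and the parts of these cannot be told apart.

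The primitive streak is the site in the gastrulating embryo where epiblast cells leave to form mesoderm and endoderm. Wnt3 starts it, T, Eomes, Mixl1 and Evx1 are transcription factors of its cells, Fgf8 and Wnt8a are signals of the streak, and the Cdx factors then pattern the posterior axis and control Hox genes. Inhibition of GSK3 stabilises β-catenin, which acts on DNA through TCF and LEF factors, and T and Cdx1 are known direct targets of that pathway.

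The promoters of T, Cdx2 and Wnt3 are shown because these genes stand for 3 patterns: a level that differed between media, one that differed by genotype in 2i + LIF and one that was highest in Trincr1-/- ESCs in PD + LIF. Each window holds the 250 bases before the start of transcription given by RefSeq in GRCm38.p6, written 5′ to 3′ on the strand of the gene. The window of T is chr17:8434173-8434422, on the plus strand, that of Cdx2 is chr5:147307250-147307499, on the minus strand, and that of Wnt3 is chr11:103773925-103774174, on the plus strand. Capitals mark the core bases of a TCF and LEF motif, CTTTGA or its reverse complement TCAAAG.
T: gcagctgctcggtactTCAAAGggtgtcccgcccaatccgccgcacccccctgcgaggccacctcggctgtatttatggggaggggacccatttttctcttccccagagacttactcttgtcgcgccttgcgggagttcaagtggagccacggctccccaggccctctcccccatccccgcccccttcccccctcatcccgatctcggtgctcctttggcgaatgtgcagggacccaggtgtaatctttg
Cdx2: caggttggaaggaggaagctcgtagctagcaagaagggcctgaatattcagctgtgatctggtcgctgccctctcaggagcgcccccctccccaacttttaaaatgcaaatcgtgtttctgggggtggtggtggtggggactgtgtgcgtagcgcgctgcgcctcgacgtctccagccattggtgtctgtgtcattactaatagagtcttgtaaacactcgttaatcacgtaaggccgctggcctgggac
Wnt3: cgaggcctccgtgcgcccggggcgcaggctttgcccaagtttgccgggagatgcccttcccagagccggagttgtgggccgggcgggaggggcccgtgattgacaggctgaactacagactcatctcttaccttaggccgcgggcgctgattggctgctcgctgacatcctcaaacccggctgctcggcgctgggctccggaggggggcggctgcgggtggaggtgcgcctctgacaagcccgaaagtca

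The core was searched on both strands of the 6 member promoters in the RefSeq table that could be shown, those of Cdx2, Cdx4, T, Evx1, Wnt3 and Eomes. It occurred in 1 of them, on the minus strand of T, from 234 to 229 bases before the start. Of all 32851 promoter windows of this length, 13.8% held it. A match is a description of the letters and not a bound site. Neither Mixl1 nor Fgf8 was in that table. The promoters of Cdx1 and Wnt8a were not among the 6 searched either. The count therefore leaves out Cdx1, the member with the largest medium difference.

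Expression was given by the authors as FPKM, fragments scaled to transcript length and library size, so levels of different genes can be set side by side. The steps between low values put the depth at 9.35 to 12.74 M fragments per sample, and 1 fragment per kilobase of transcript was worth 0.0785 to 0.107 FPKM. For 7 members the values could be turned back into whole fragments, which gives the counting error; intervals from these fragments are exact 95% binomial intervals, adjusted for depth, and cover counting error only. Differences were fitted with limma on log2(FPKM + 1) over the 15430 genes with a mean above 0.2 FPKM, and a gene was called at a Benjamini-Hochberg adjusted p under 0.05. All fitted differences are on that log2 scale, where adding 1 FPKM shrinks the difference of a low gene. Of the members 6, namely Cdx1, Cdx2, T, Evx1, Fgf8 and Eomes, passed the filter, which means that they reached that mean through at least 1 group. The other 4, Cdx4, Mixl1, Wnt3 and Wnt8a, stayed below it, Wnt3 by the least, with a mean of 0.185 FPKM. A lower value in bulk RNA can mean fewer expressing cells or less RNA per cell, which cannot be told apart here.

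Gm2694 was 7.58 ± 2.65 in wild-type against 0.0377 ± 0.0533 FPKM in Trincr1-/- samples in 2i + LIF, and 6.37 ± 0.266 and 1.06 ± 0.450 FPKM in PD + LIF (SD, n = 2 for each). Both knockout samples were below both wild-type samples in each medium, and more of its RNA was listed in knockout samples in PD + LIF than in 2i + LIF. ESC markers were present in all 8 samples and most were lower in PD + LIF. The 10 markers summed to 1942 to 2008 FPKM over the 4 samples in 2i + LIF, to 1421 to 1471 FPKM in wild-type and to 1095 to 1141 FPKM in Trincr1-/- ESCs in PD + LIF, with Pou5f1 between 354 and 726 FPKM over all samples and Tbx3, the lowest of the 10, between 4.40 and 34.7 FPKM.

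**Figure D1:**
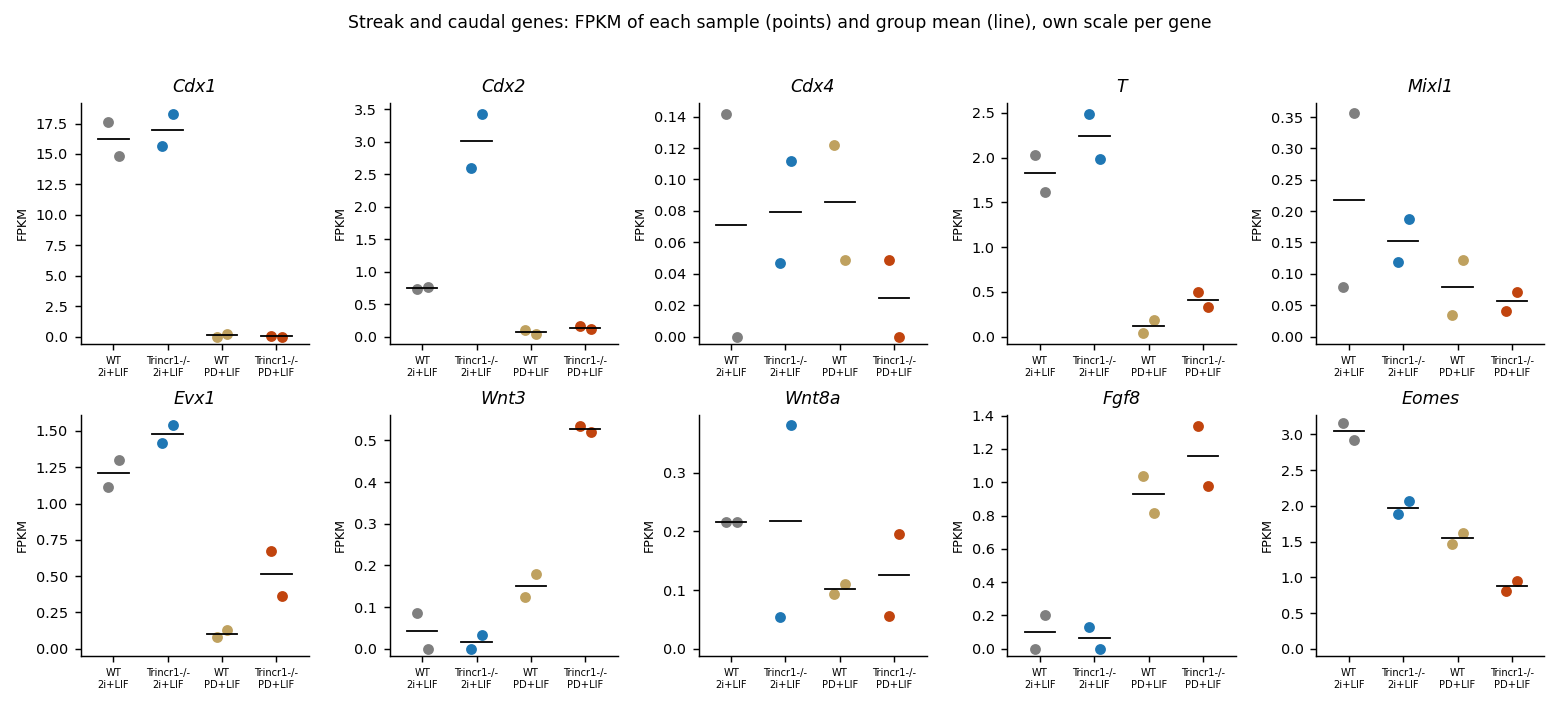
FPKM of the 10 genes in each of the 8 samples, 1 panel per gene with its own linear scale; points are samples and the line is the mean of the 2 samples of a group. Cdx1 sits at 14.9 FPKM or more in 2i + LIF and at 0.222 FPKM or less in PD + LIF, Cdx2 is highest in Trincr1-/- ESCs in 2i + LIF, and Wnt3 is highest in Trincr1-/- ESCs in PD + LIF.

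Cdx1 was the most abundant member in 2i + LIF and was nearly absent from PD + LIF. It encodes a caudal homeobox factor that sets anterior to posterior identity (chr18:61018861-61036199, ENSMUSG00000024619, GRCm38 as all gene positions below). Its level was 17.6 and 14.9 in wild-type against 15.6 and 18.3 FPKM in Trincr1-/- ESCs in 2i + LIF. In PD + LIF it was 0 and 0.222 in wild-type against 0.0554 and 0 FPKM in Trincr1-/- ESCs. The genotypes overlapped in both media, and the media did not overlap in either genotype. In fragments, wild-type ESCs gave 603 in 2i + LIF and 4 in PD + LIF, a 161-fold difference (62.5 to 592). Trincr1-/- ESCs gave 585 and 1 fragments, a ratio of 653 (117 to 25834). The fitted medium difference of Cdx1 was -3.96 (SE 0.15) in wild-type and -4.13 (SE 0.15) in Trincr1-/- ESCs, with limma adjusted p-values of 5.41e-06 and 3.00e-06. Between genotypes it was 0.06 (SE 0.15) in 2i + LIF and -0.11 (SE 0.15) in PD + LIF, with limma adjusted p-values of 0.919 and 0.695. In 2i + LIF the fragment ratio of Trincr1-/- to wild type was 1.04 (0.926 to 1.17).

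Cdx2 was the only member whose level differed between genotypes in 2i + LIF by the test. It encodes the caudal homeobox factor that also specifies trophoblast (chr5:147300804-147307270, ENSMUSG00000029646). Wild-type ESCs had 0.727 and 0.766 FPKM and Trincr1-/- ESCs 2.60 and 3.43 FPKM. Both knockout samples were above both wild-type samples, 4.04-fold on the means. The fragments were 18 and 19 in wild type and 65 and 73 in Trincr1-/- ESCs, a ratio of 4.00 (2.76 to 5.91). The fitted difference was 1.19 (SE 0.14, limma adjusted p = 0.0120). The call was made for 1 of 6 members tested, against 0.350% of all genes called higher and 0.855% called lower in Trincr1-/- ESCs in this medium. It was lost when 1 of 3 samples was left out, with adjusted p-values of 0.0851 without wild-type sample 1, 0.0838 without wild-type sample 2 and 0.0724 without Trincr1-/- sample 2. It was also lost with 0.1 FPKM added in place of 1 (0.0592) and with only these 2 groups in the fit (0.172), which leaves fewer samples to estimate the spread.

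In PD + LIF Cdx2 fell to 0.104 and 0.0416 FPKM in wild-type ESCs and to 0.166 and 0.109 FPKM in Trincr1-/- ESCs. These values rest on 4 fragments in wild-type and 7 in Trincr1-/- ESCs. The knockout samples were the higher ones in FPKM, although the nearest samples of the genotypes held 3 fragments each. The fragment ratio was 1.79 with an interval from 0.455 to 8.35, so that a difference of the size seen in 2i + LIF was not excluded by the counting error. The fitted genotype difference in PD + LIF was 0.08 (SE 0.14, limma adjusted p = 0.739). The difference between the 2 genotype differences, PD + LIF minus 2i + LIF, was -1.11 on the scale of log2(FPKM + 1) (SE 0.19, limma adjusted p = 0.0430). Cdx2 was the 1 member of 6 called there, beside 0.992% of all genes called higher and 0.817% called lower. That call was kept in 2 of 14 alternatives. It was lost when any 1 of the 8 samples was left out, with adjusted p-values from 0.0746 to 0.130, and it compares log2(FPKM + 1), where low values are shrunk. With 0.1 FPKM added it was -1.40 with an adjusted p of 0.207. Between media, Cdx2 was lower in PD + LIF by 0.70 (SE 0.14, limma adjusted p = 0.00413) in wild-type and by 1.81 (SE 0.14, limma adjusted p = 5.15e-05) in Trincr1-/- ESCs. The group mean was highest in Trincr1-/- ESCs in 2i + LIF, then in wild type in 2i + LIF, and the PD + LIF groups followed at levels of a few fragments.

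Markers of trophoblast, where Cdx2 is also expressed, were not called higher with it in 2i + LIF. The summed level of the 11 markers was 27.95 to 31.8 FPKM in wild-type and 22.6 to 23.1 FPKM in Trincr1-/- ESCs. Of the 9 that were tested, limma called 0 higher and 1, Plet1, lower, and at an unadjusted p under 0.05 there were 0 higher and 2 lower. The markers went both ways: Tfap2a was 4.76 and 4.14 in wild-type against 5.08 and 5.90 FPKM in Trincr1-/- ESCs, Krt8 was 10.9 and 13.3 against 10.6 and 10.2 FPKM, and Elf5, which marks trophoblast stem cells, was 0.204 and 0 FPKM against 0 in both.

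Cdx4, the third caudal factor, was at the limit of detection throughout. Its values were 0.142 and 0 FPKM in wild type and 0.0469 and 0.112 FPKM in Trincr1-/- ESCs in 2i + LIF, and 0.122 and 0.0487 FPKM against 0.0486 and 0 FPKM in PD + LIF. No sample held more than 3 fragments of Cdx4 (chrX:103321397-103330592, ENSMUSG00000031326). The fragment ratio of Trincr1-/- to wild type was 1.07 (0.144 to 7.999) in 2i + LIF and 0.256 (0.00520 to 2.59) in PD + LIF, and no difference was detectable at this depth.

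T, or brachyury, the T-box factor of mesoderm and notochord, followed the medium (chr17:8434422-8442496, ENSMUSG00000062327). In 2i + LIF it was 2.03 and 1.61 in wild-type against 2.49 and 1.98 FPKM in Trincr1-/- ESCs. Without CHIR99021 it was 0.0389 and 0.186 in wild-type against 0.495 and 0.326 FPKM in Trincr1-/- ESCs. The media did not overlap in either genotype, and the genotypes overlapped in 2i + LIF but not in PD + LIF. The fitted medium difference was -1.34 (SE 0.15, limma adjusted p = 0.000334) in wild-type and -1.20 (SE 0.15, limma adjusted p = 0.000581) in Trincr1-/- ESCs. Between genotypes in PD + LIF the means differed 3.65-fold, the fitted difference was 0.34 (SE 0.15) and the limma adjusted p was 0.190. These means rest on an estimated 5.06 fragments in wild-type and 18.9 in Trincr1-/- ESCs. The values of T could not be turned into whole fragments, so no interval is given. In 2i + LIF the fitted difference was 0.20 (SE 0.15, limma adjusted p = 0.625).

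Evx1, a homeobox factor of the posterior streak, had the same order of groups as T (chr6:52313497-52318378, ENSMUSG00000005503). It was 1.12 and 1.30 in wild-type against 1.41 and 1.54 FPKM in Trincr1-/- ESCs in 2i + LIF. In PD + LIF it was 0.0802 and 0.128 in wild-type against 0.670 and 0.360 FPKM in Trincr1-/- ESCs. The knockout samples lay above the wild-type samples in each medium. In 2i + LIF the interval of the fragment ratio, 1.21 (0.881 to 1.66), included 1. In PD + LIF the fragments were 7 in wild-type and 34 in Trincr1-/- ESCs, a ratio of 4.97 (2.17 to 13.3). The fitted genotype difference in PD + LIF was 0.45 (SE 0.14, limma adjusted p = 0.0805), and that in 2i + LIF was 0.17 (SE 0.14, limma adjusted p = 0.661). With 0.1 FPKM added it was 1.56 in PD + LIF and was called (limma adjusted p = 0.0352). The medium difference was -0.999 (SE 0.14, limma adjusted p = 0.000859) in wild-type and -0.72 (SE 0.14, limma adjusted p = 0.00432) in Trincr1-/- ESCs.

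Eomes, a T-box factor of mesendoderm and trophoblast, was the highest member in PD + LIF in wild-type ESCs and went the other way between genotypes (chr9:118478211-118486132, ENSMUSG00000032446). It was 3.16 and 2.93 in wild-type against 1.88 and 2.06 FPKM in Trincr1-/- ESCs in 2i + LIF, and 1.46 and 1.63 FPKM against 0.813 and 0.953 FPKM in PD + LIF. The 4 groups did not overlap, and their means ran from 3.04 FPKM in wild type in 2i + LIF through 1.97 and 1.54 to 0.883 FPKM in Trincr1-/- ESCs in PD + LIF. The fitted genotype difference was -0.44 (SE 0.12, limma adjusted p = 0.144) in 2i + LIF and -0.43 (SE 0.12, limma adjusted p = 0.0531) in PD + LIF, so neither was called. In PD + LIF it was called without the variance trend, with an adjusted p of 0.0287, and with 0.1 FPKM added, with 0.0480. The medium difference was -0.67 (SE 0.12, limma adjusted p = 0.00238) in wild-type and -0.66 (SE 0.12, limma adjusted p = 0.00271) in Trincr1-/- ESCs.

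Mixl1, a homeobox factor of the streak, stayed below 0.4 FPKM in every sample (chr1:180693042-180697034, ENSMUSG00000026497). It was 0.0795 and 0.357 in wild-type against 0.118 and 0.188 FPKM in Trincr1-/- ESCs in 2i + LIF, and 0.0342 and 0.123 FPKM against 0.0409 and 0.0718 FPKM in PD + LIF. The genotypes overlapped in both media, with fragment ratios of 0.682 (0.224 to 1.93) and 0.768 (0.112 to 4.54).

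Wnt3, the Wnt ligand that starts the streak, was highest in Trincr1-/- ESCs in PD + LIF (chr11:103774149-103817957, ENSMUSG00000000125). It was 0.0866 and 0 in wild-type against 0 and 0.0341 FPKM in Trincr1-/- ESCs in 2i + LIF. Without CHIR99021 it was 0.124 and 0.178 in wild-type against 0.534 and 0.521 FPKM in Trincr1-/- ESCs. The 2 knockout samples in PD + LIF were above the 6 other samples. Fragments were 5 and 6 in wild-type and 18 and 20 in Trincr1-/- ESCs in PD + LIF, a ratio of 3.54 (1.77 to 7.67). In 2i + LIF 3 fragments came from wild-type and 1 from Trincr1-/- ESCs, a ratio of 0.357 (0.00680 to 4.45) that shows no direction. Without the filter on low values, over 22266 genes, the fitted genotype difference of Wnt3 in PD + LIF was 0.41 (limma adjusted p = 0.0187), the medium difference in Trincr1-/- ESCs was 0.59 (0.000811), and the medium difference in wild-type ESCs was 0.14 (0.0958). In that fit Wnt3 was the 1 member of 10 called between genotypes in PD + LIF, against 3.65% of genes called higher, and 1 of 7 called between media in Trincr1-/- ESCs, where 21.0% were called higher. The difference of its genotype difference between media was 0.44 with a limma adjusted p of 0.0786, so that the genotype differences of the 2 media are not shown to differ.

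Wnt8a, another ligand of the streak, was low in all groups (chr18:34542312-34548273, ENSMUSG00000012282). Its values were 0.216 and 0.216 in wild-type against 0.0535 and 0.382 FPKM in Trincr1-/- ESCs in 2i + LIF, and 0.0931 and 0.111 FPKM against 0.0556 and 0.195 FPKM in PD + LIF. It held 1 to 6 fragments per sample, and the genotype ratio was 0.937 (0.289 to 2.96) in 2i + LIF and 1.28 (0.275 to 6.45) in PD + LIF.

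Fgf8, the FGF ligand that cells need to leave the streak, was the 1 tested member with a higher level in PD + LIF (chr19:45736797-45742915, ENSMUSG00000025219). It was 0 and 0.203 in wild-type against 0.131 and 0 FPKM in Trincr1-/- ESCs in 2i + LIF. Without CHIR99021 it was 1.04 and 0.815 in wild-type against 1.34 and 0.978 FPKM in Trincr1-/- ESCs. The genotypes overlapped in both media, and every sample in PD + LIF was above every sample in 2i + LIF. The fitted medium difference was 0.81 (SE 0.16, limma adjusted p = 0.00403) in wild-type and 1.02 (SE 0.16, limma adjusted p = 0.00148) in Trincr1-/- ESCs. Between genotypes it was -0.04 (SE 0.16, limma adjusted p = 0.951) in 2i + LIF and 0.16 (SE 0.16, limma adjusted p = 0.557) in PD + LIF.

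**Figure D2:**
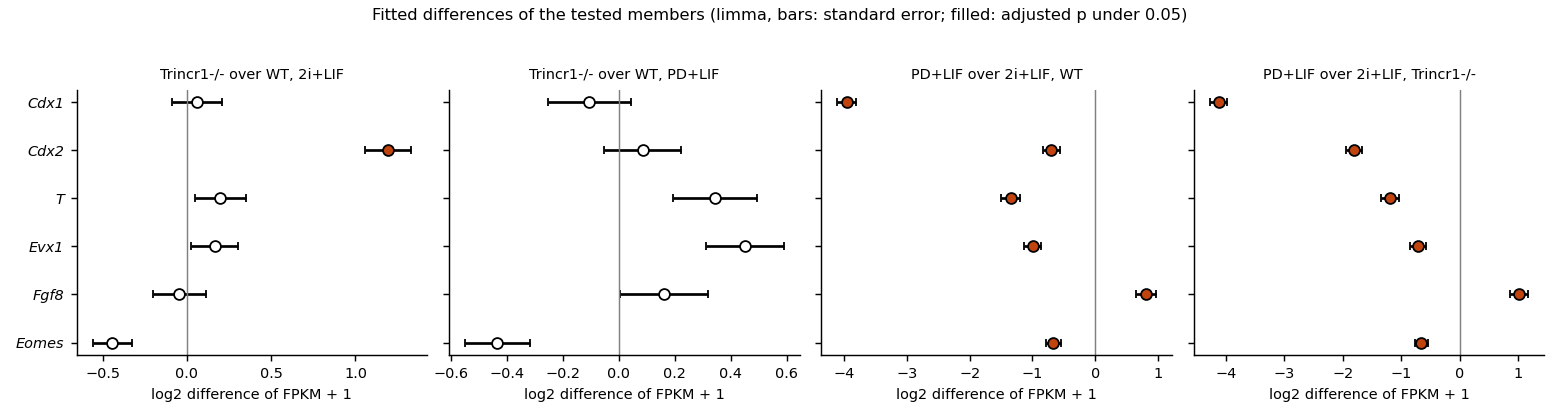
Fitted differences on log2(FPKM + 1) of the 6 tested members, with the standard error as bars, for the genotype in each medium and the medium in each genotype; each panel has its own x axis, and filled points have a limma adjusted p under 0.05. Cdx2 is the 1 filled point among the genotype differences, and all 12 medium differences are filled, with only Fgf8 to the right of 0.

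Of the 6 tested members all were called between media, and 1 or 0 between genotypes. In wild-type ESCs 5 of the 6 tested members, Cdx1, Cdx2, T, Evx1 and Eomes, were lower in PD + LIF, where 21.3% of all genes were called lower, and 1, Fgf8, was higher, where 30.9% were called higher. In Trincr1-/- ESCs the same members were called in the same directions, 5 lower and 1 higher, beside 20.3% and 29.6% of all genes. The median difference of the 6 was -0.85 in wild-type and -0.96 in Trincr1-/- ESCs, while over all genes tested it was 0.08 and 0.07. A low gene passes the filter through the medium in which it is high, so this count is a description. Markers of other cell types differed between media too. Of 9 trophoblast markers tested, 7 were called higher and 1 lower in PD + LIF in each genotype, with medians of 1.52 in wild-type and 2.10 in Trincr1-/- ESCs. Of 10 ESC markers, 7 were called lower and 3 higher in wild-type and 8 and 1 in Trincr1-/- ESCs. Of 5 endoderm markers 2 were higher in wild-type and 5 in Trincr1-/- ESCs, and of 3 fibroblast markers 2 and 3. Their part in the medium differences of the members was not tested. The wild-type 2i + LIF samples enter both the medium comparison and the genotype comparison in that medium, and likewise each other group enters 2 comparisons.

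Between genotypes in PD + LIF, limma called 0 of the 6 tested members, beside 6.29% of all genes called higher and 5.77% called lower. At an unadjusted p under 0.05 there were 2, Evx1 higher and Eomes lower. The share of all genes at that unadjusted threshold was not counted in any comparison. This count and those of the lists therefore stand without a background. In FPKM the samples of the 2 genotypes did not overlap for 6 of the 10 members: Cdx2, T, Evx1 and Wnt3 were higher in Trincr1-/- ESCs, and Cdx4 and Eomes were lower. For 2 of these, Cdx2 and Cdx4, the nearest samples held the same number of fragments, which leaves 4. Of the 22266 genes with any expression, 24.6% were likewise apart with higher and 22.0% with lower values in Trincr1-/- ESCs. The order among the higher ones on the ratio of means was Evx1 with 4.96, T with 3.65, Wnt3 with 3.49 and Cdx2 with 1.89, and the intervals of the fragment ratios of Evx1 (2.17 to 13.3) and Wnt3 (1.77 to 7.67) overlapped.

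The rule of the study, which asks for a 2-fold ratio and an average of 1 FPKM or more, was applied to the group means with a floor of 0.1 FPKM. It has no test. The rule picked the same members as limma between genotypes and fewer between media, where fewer were high enough to enter. In 2i + LIF 5 members were high enough and 1, Cdx2, was higher in Trincr1-/- ESCs, against 0.913% of all genes that were high enough. In PD + LIF 2 were high enough, Fgf8 and Eomes, and 0 passed, against 1.83% of genes higher and 2.19% lower. In wild-type ESCs it took 1 of 2 members, Cdx1, as lower in PD + LIF (5.56% of genes), and in Trincr1-/- ESCs 4 of 4, Cdx1, Cdx2, T and Eomes (6.04%). With a minimum mean of 0.2 FPKM the rule took 3 of 5 members, T, Evx1 and Wnt3, as higher in Trincr1-/- ESCs in PD + LIF (4.60% of genes). Between media it then took Fgf8 as higher (19.1%) and 4 as lower (8.26%) in PD + LIF of 6 members in wild-type ESCs, and Wnt3 and Fgf8 as higher (19.5%) and 5 as lower (8.74%) of 7 in Trincr1-/- ESCs.

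**Figure D3:**
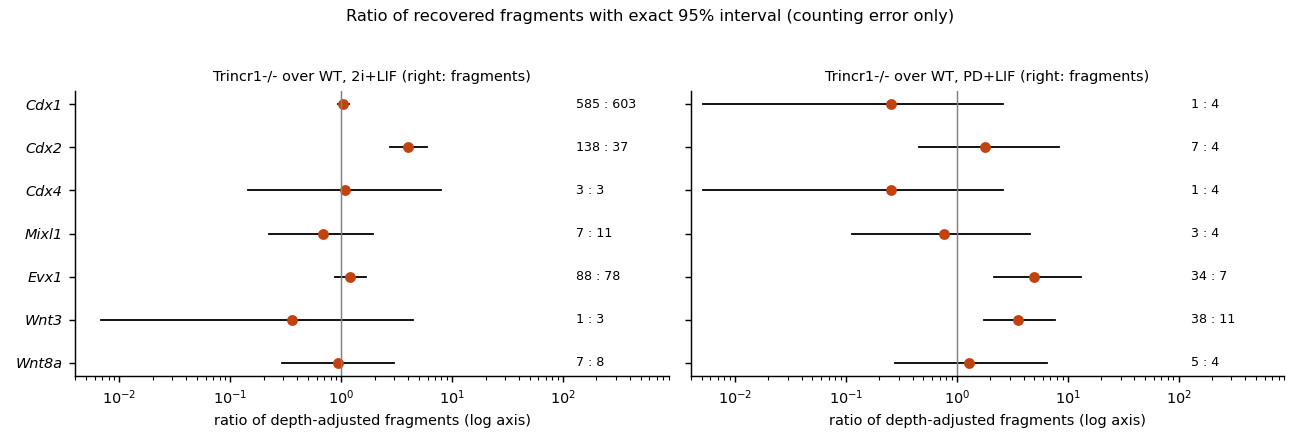
Ratio of depth-adjusted fragments, Trincr1-/- over wild type, for the 7 members whose fragments could be recovered, in 2i + LIF and in PD + LIF on a log axis; bars are exact 95% intervals of counting error, and the fragments of both groups are printed at the right. The interval lies above 1 for Cdx2 in 2i + LIF and for Evx1 and Wnt3 in PD + LIF.

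Of the 31 other streak and mesendoderm genes, 25 were tested. All list counts below stand beside the shares of all genes, which were 0.350% called higher and 0.855% lower for the genotype in 2i + LIF, 6.29% and 5.77% for the genotype in PD + LIF, 30.9% and 21.3% for the medium in wild-type and 29.6% and 20.3% for the medium in Trincr1-/- ESCs. In 2i + LIF 1, Snai1, a repressor of E-cadherin in cells that leave the streak, was higher in Trincr1-/- ESCs (10.3 ± 1.80 FPKM against 1.79 ± 0.125 FPKM in wild type, SD, n = 2). Lefty1, a Nodal inhibitor, was lower there, with a log2 difference of -1.03. In PD + LIF 7 of the 25 were called higher (6.29% of all genes) and 3 lower (5.77%), with Sp5, a zinc finger factor downstream of Wnt, at 1.66 ± 0.208 in wild-type against 9.22 ± 1.12 FPKM in Trincr1-/- ESCs. Snai1 was among the 7 here too, at 2.65 ± 0.838 in wild-type against 11.7 ± 1.03 FPKM in Trincr1-/- ESCs. The median difference of this list in PD + LIF was 0.18, against 0.01 over all genes tested. Between media 8 were called higher (30.9% of all genes) and 9 lower (21.3%) in wild-type, and 10 higher (29.6%) and 10 lower (20.3%) in Trincr1-/- ESCs.

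Cdx factors control Hox genes, and of 39 Hox genes 15 were tested. In PD + LIF limma called 6 of them lower in wild-type ESCs, beside 21.3% of all genes, and 0 higher (1 at an unadjusted p under 0.05), beside 30.9%. In Trincr1-/- ESCs 11 were lower, beside 20.3% of all genes, and 1 was higher, beside 29.6%. The median difference of the 15 was -0.39 in wild-type and -0.75 in Trincr1-/- ESCs, against 0.08 and 0.07 over all genes. As with the members, a low Hox gene passes the filter through the medium in which it is high. These counts and medians are therefore a description. Hoxc4 was 4.37 ± 0.302 in wild-type against 6.22 ± 0.259 FPKM in Trincr1-/- ESCs in 2i + LIF, and 0.385 ± 0.00688 and 0.361 ± 0.0332 FPKM in PD + LIF. Between genotypes 1 Hox gene, Hoxc6, was called in 2i + LIF (limma adjusted p = 0.0352). Its level there was 0.0908 ± 0.0428 in wild-type against 0.890 ± 0.156 FPKM in Trincr1-/- ESCs. The PD + LIF means of Hoxc6 were as low, 0.109 FPKM for wild type and 0.0859 FPKM for the knockout. Hoxc6 therefore passed the filter of 0.2 FPKM only through the group that was called high. This call is a description too. In PD + LIF limma called 0 of the 15 between genotypes, and 0 had an unadjusted p under 0.05. In 2i + LIF 6 of the 15 were higher and 1 lower in Trincr1-/- ESCs at that unadjusted threshold, for which no share of all genes was counted. Their median genotype difference in 2i + LIF was 0.30, against 0.002 over all genes tested.

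Genes of the Wnt pathway were taken as targets and feedback genes, a list that holds Cdx1 and T themselves, and as receptors and transducers. The lists share genes, so their counts are not separate: Tcf7, Lef1 and Fzd7 are in both Wnt lists. Sp5 of the targets, Fgf4 and Fgf5 of the FGF list and Foxa2 of the endoderm markers are also among the other streak genes. Of 17 targets tested, 9 were lower (21.3% of all genes) and 4 higher (30.9%) in PD + LIF in wild-type ESCs, and 10 were lower (20.3%) and 4 higher (29.6%) in Trincr1-/- ESCs. Between genotypes 1 was higher in 2i + LIF (0.350% of all genes), and 4 were higher (6.29%) and 1 lower (5.77%) in PD + LIF. Axin2, a feedback inhibitor that is widely used as a readout of β-catenin, was 23.3 ± 0.0921 in wild-type against 30.7 ± 3.30 FPKM in Trincr1-/- ESCs in 2i + LIF, and 2.86 ± 0.364 and 9.76 ± 1.77 FPKM in PD + LIF. Its genotype difference was larger in PD + LIF by 1.09 on the log2 scale (limma adjusted p = 0.0409). Over all genes, calls for this difference between media fell from 279 to 88 without the variance trend and to 39 with a replicate block. They were fewer still in every fit with 1 sample left out. The call of Axin2 was not examined under other settings. Of 23 receptors and transducers, limma called 0 between genotypes in 2i + LIF. There 11 had an unadjusted p under 0.05, a threshold for which no share of all genes was counted. In PD + LIF 3 were higher and 1 lower in Trincr1-/- ESCs (6.29% and 5.77% of all genes). Fzd2 and Wls were among the higher, and Tcf7, also the 1 lower target, was the lower. Of 15 genes for FGF receptors and FGF feedback, 3 were called higher and 2 lower between genotypes in PD + LIF, beside the same shares of all genes. Between media 6 of them were higher in PD + LIF and 7 lower in wild-type, and 6 and 6 in Trincr1-/- ESCs. Etv4 and Etv1, ETS factors downstream of FGF signalling, were among the lower ones, with log2 differences of -4.66 and -2.21 in wild-type and -4.55 and -2.10 in Trincr1-/- ESCs. Fgfr2, a receptor of Fgf8 and other FGFs, was higher in PD + LIF, with log2 differences of 4.34 and 3.89.

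**Figure D4:**
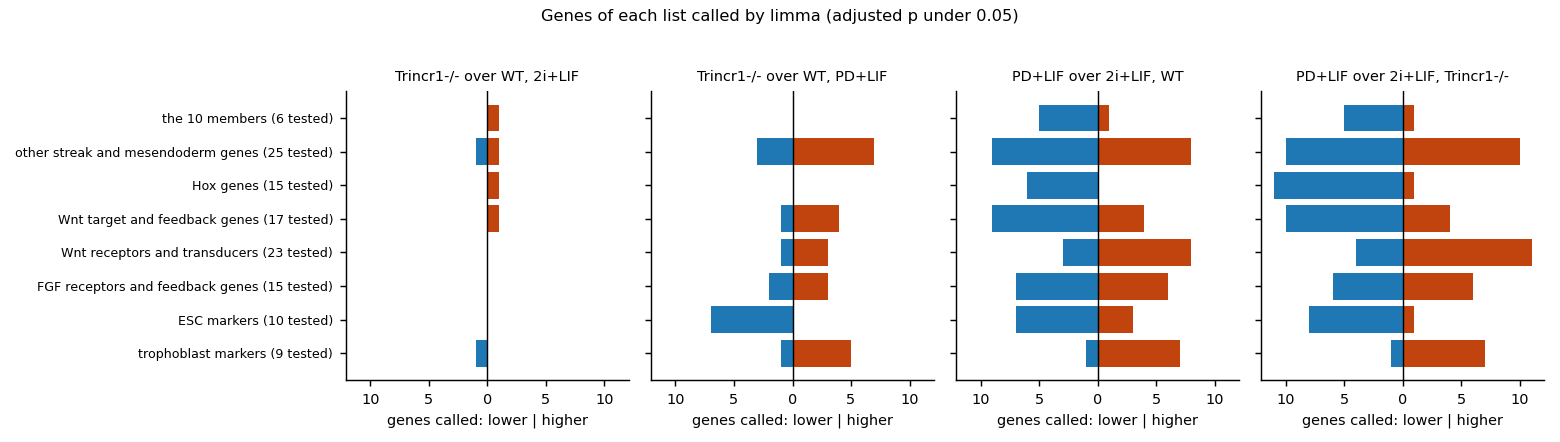
Number of genes called lower (left, blue) and higher (right, red) by limma in each list, for the genotype in each medium and the medium in each genotype, with the number tested beside the name. The members and the Hox genes lie mostly to the left in the medium panels, and the genotype panel for PD + LIF shows 7 higher streak genes, 0 members and 0 Hox genes.

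Markers of other cell types also differed between genotypes in PD + LIF, where the samples of T, Evx1 and Wnt3 lay higher in Trincr1-/- ESCs. The summed level of the 11 trophoblast markers was 153 to 160 FPKM in wild-type and 287 to 295 FPKM in Trincr1-/- ESCs, most of it Krt8 and Krt18, and 5 of the 9 tested were called higher (6.29% of all genes) and 1 lower (5.77%). Elf5 was 0.112 FPKM or less in PD + LIF and Tpbpa was listed at 0 in all 8 samples. The 10 endoderm markers summed to 5.11 to 5.78 FPKM in wild-type and 8.01 to 8.69 FPKM in Trincr1-/- ESCs, with Afp at 0 throughout, and 1 of the 5 tested, Foxa2, was called higher. The 7 fibroblast markers summed to 4.14 to 4.59 and 5.56 to 6.40 FPKM, and 1 of the 3 tested, Col1a1, was called higher. The 10 ESC markers summed to 1421 to 1471 FPKM in wild-type and 1095 to 1141 FPKM in Trincr1-/- ESCs. Of the 10, 7 were called lower (5.77% of all genes) and 0 higher. At an unadjusted p under 0.05 there were 9 lower and 0 higher. The part of these shifts in the values of the members was not tested.

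Across the 8 samples the members that fell in PD + LIF ran together, on log2(FPKM + 1) and as a description, since the samples fall into 2 media and share their libraries. Pearson's r was 0.964 between Cdx1 and T, 0.963 between T and Evx1 and 0.911 between Cdx1 and Evx1, and it was -0.975 between Cdx1 and Fgf8. Eomes went least with Cdx2, with an r of 0.453. Among genes of at least 2 FPKM in a sample, the gene most like Cdx1 was Adprh (r = 0.999), most like Cdx2 Ndufaf5 (0.979), most like T N6amt1 (0.993), most like Evx1 Gins4 (0.997), most like Fgf8 Racgap1 (0.997) and most like Eomes Pramel7 (0.992), each over 8 samples.

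RNA was pulled down with FLAG-tagged TRIM71, an RNA-binding protein, from ESCs in 2i + LIF that overexpressed the tagged protein. It was given as 1 value per transcript, without replicates. Of the 10 members 4 were listed, and the other 6 were not analysed here. Cdx1 had an input of 15.2 FPKM and a pulldown value of 1.1 FPKM, or 2.5 after the authors' scaling, a ratio of 0.164. The median ratio of the 1886 transcripts whose input lay between 10 and 20 FPKM was 0.0647, and 45.6% of them were at 0 in the pulldown. Eomes with an input of 1.0, Wnt3 with 0.3 and Fgf8 with 0.1 FPKM were at 0 in the pulldown, as were 93.0% of the 3068 transcripts whose input did not exceed 1 FPKM, so that their binding was not detectable. How deeply these libraries were sequenced is not known.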

How the data were processed

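Poly(A) RNA of the 8 samples was sequenced, and the authors aligned the reads with STAR 2.5.0 and deposited normalized FPKM values from Cufflinks 2.2.1, 1 value per gene and sample. The methods name mm9, while the coordinates of the table are those of GRCm38. Values rounded to 1 decimal were deposited as FPKM for the TRIM71 pulldown and its input, with a further pair scaled by the authors to a common average, which is no longer plain FPKM. Of the 14 samples in the series, those with an empty vector were not used here. The authors' own fold of enrichment was not used.

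For the RNA-seq table, 1 entry was kept for each of 41204 gene identifiers. Log2(FPKM + 1) was fitted with limma 3.58.1 in R 4.3.3, in 1 model of all 4 groups with a variance trend, which leaves 4 degrees of freedom for the spread, for 5 contrasts over genes with a mean above 0.2 FPKM. P-values were adjusted by Benjamini-Hochberg. Whole fragments were recovered from FPKM, transcript length and the step of low values, with a length factor per gene between 0.95 and 1.05 and a tolerance of 0.15 fragments. Over 3888 genes with a single transcript of 1500 to 4000 bases, 86.9% to 90.3% of the 512 to 609 low values per sample were whole within that tolerance. Neither normalization nor depth was corrected further, since the FPKM sums ranged from 497115 to 519651. Samples were numbered alike in each group, but the deviations of samples with the same number correlated between -0.054 and 0.006, so the numbers do not pair them.

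The genes named are all 10 members, from each list up to 3 called genes with the largest difference per contrast, and the genes most like each tested member. The members, lists and tests were chosen with earlier results of these data known. Python 3.11.15 with scipy 1.17.1, pandas 2.3.3 and numpy 2.4.6 gave the tables and matplotlib 3.10.9 the plots. The fit was tested on simulated data with changes placed only in the more abundant genes, so the recovery of changes in low genes was not tested. Alternatives covered the pseudocount, the filter, scaling, the variance trend, the samples fitted and each sample left out.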

Additional observations from a re-analysis of the deposited data

Results flagged for a closer look

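The fitted genotype difference of Cdx2 was called different between media in 2 of 14 alternatives beside the fit reported. The difference of the 2 was -1.11 on the scale of log2(FPKM + 1), PD + LIF minus 2i + LIF, by the interaction term of the limma fit (adjusted p = 0.0430). Group means were 0.746 in wild-type against 3.02 FPKM in Trincr1-/- ESCs in 2i + LIF, and 0.0730 and 0.138 FPKM in PD + LIF. The PD + LIF values rest on 4 and 7 fragments, with a fragment ratio of 1.79 (0.455 to 8.35) that does not exclude the size seen in 2i + LIF. The call was lost when any 1 sample was left out, with 0.1 FPKM added, without the filter, without the variance trend and with a replicate block.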

How the results depend on the processing

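The 6 medium calls in each genotype, and their directions, held under every alternative in which the gene was tested. A minimum mean of 1 FPKM left only Cdx1, T and Eomes among the tested members, so there were 3 medium calls in each genotype and 0 calls in the other comparisons. The count of members called between genotypes in 2i + LIF was 1 and became 0 with 0.1 FPKM added and with only the 2 groups fitted, and ranged from 0 to 1 when 1 sample was left out. In PD + LIF it was 0 and became 2 of 6 with 0.1 FPKM added (Evx1 and Eomes), beside 1536 of all 15430 genes tested. It became 1 of 10 without the filter (Wnt3), beside 1519 of 22266 genes, and 1 of 6 without the variance trend (Eomes), beside 1378 of 15430. The count for the difference of the genotype effect between media was 1 and became 0 with 0.1 FPKM added, without the filter (adjusted p of Cdx2 0.0610), without the variance trend (0.0517), with a replicate block (0.0861) and in each fit with 1 sample left out. Upper quartile scaling (0.0426) and quantile normalization (0.0359) kept it. The replicate block changed no other call of a member; in 2i + LIF Cdx2 kept a difference of 1.19 with an adjusted p of 0.0314. The fold rule with a minimum mean of 0.2 FPKM took 3 of 5 members between genotypes in PD + LIF (4.60% of genes were higher), 5 of 6 between media in wild-type and 7 of 7 in Trincr1-/- ESCs. The pulldown ratio of Cdx1 was 0.0724 unscaled and 0.216 with 1 FPKM added. No called value changed sign. Some differences that were not called changed sign when 1 sample was left out: that of Cdx1 ranged from -0.0537 to 0.177 between genotypes in 2i + LIF and from -0.250 to 0.0389 in PD + LIF, that of Fgf8 in 2i + LIF from -0.178 to 0.0889, and the difference of the genotype effect of Eomes between media from -0.0446 to 0.0629. The last was also -0.143 with 0.1 FPKM added and -0.0038 with quantile normalization. In all, 208 of 219 values under other settings and 220 of 240 with 1 sample left out kept their direction and their side of the threshold. Depth limits Cdx4, Mixl1 and Wnt8a, which held at most 9 fragments in any sample.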
